A study of Mus musculus with 10 samples.

Results

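The zinc-handling genes described here are 10 genes chosen by symbol: 4 importers of the ZIP family (Slc39a4, Slc39a8, Slc39a10 and Slc39a14), 3 transporters of the ZnT family (Slc30a1, Slc30a2 and Slc30a4), both abundant metallothioneins (Mt1 and Mt2) and the zinc-sensing transcription factor gene Mtf1. All 10 were found among the 35275 genes of the deposited table, and all 10 passed the filter on low values. RNA was sequenced from 10 mammary glands of BALB/c mice, an inbred strain, on day 3 of lactation. In 5 glands 50 µL of lipopolysaccharide (LPS, endotoxin of E. coli 055:B5) at 0.4 mg/mL had been given through the teat, and in the other 5 the same volume of sterile phosphate-buffered saline (PBS). Both sides of the 4th gland pair were used, and the glands were taken 12 h later. No gene was altered in either group, every control gland had itself been injected, and per the labels an LPS gland lay opposite a PBS gland. The labels give n = 9 and do not say which mouse each library came from, and p-values therefore cover gland-to-gland spread, which may include repeat glands of a mouse.

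Zinc enters the cytosol through ZIP proteins and leaves it, for the outside of the cell or for vesicles, through ZnT proteins. Metallothioneins are small cysteine-rich proteins that hold zinc and copper in the cytosol. MTF-1, the product of Mtf1, senses free zinc and switches on the metallothionein genes and the exporter gene Slc30a1 through short DNA sequences called metal response elements. The lactating gland moves large amounts of zinc into milk. Loss of ZnT2, the product of Slc30a2, in nursing women gives milk low in zinc, and loss of ZnT4, the product of Slc30a4, underlies the lethal milk mouse. In inflammation, zinc is drawn out of the blood into tissues, and the immune protein calprotectin binds zinc and withholds it from microbes.

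Levels are in FPKM, read counts divided by gene length and by the library's counted reads, so they can be compared between genes. A log2 change is the LPS mean less the PBS mean of log2(FPKM + 1), a scale that understates the change of genes with low FPKM. Genes count as called, and as having risen or fallen, where the limma adjusted p over 11414 tested genes was below 0.05. Depth was 15734303 to 18869545 counted reads per library. Secretory epithelium markers, the caseins included, were abundant in every library, with a summed level of 180989 to 258878 FPKM in LPS and 221337 to 300323 FPKM in PBS glands. Summed B and T cell markers stood apart in PBS replicate 2 (213 FPKM), PBS replicate 4 (179 FPKM) and LPS replicate 3 (84.6 FPKM), against 2.14 to 30.5 FPKM in the other libraries. In these whole-gland samples, fewer cells of a type and less RNA per cell cannot be told apart.

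LPS glands held more transcript of the importer gene Slc39a4 and of the exporter gene Slc30a1 than PBS glands, 2.76-fold and 2.56-fold in the ratio of mean FPKM. These were the only members called: 2 of 10 rose and 0 fell in the limma test, while 2.63% of all genes tested rose and 0.605% fell. Because the list was chosen with earlier results of these data known, these shares describe it and do not test it. At an unadjusted limma p below 0.05, Mt2 was also higher and Slc30a2 lower, but neither was called (limma adjusted p = 0.112 and 0.224). The share of all genes below that unadjusted threshold was not counted. The metallothionein Mt2 was 1.63-fold higher in mean FPKM without passing the adjusted threshold. The milk zinc transporter genes Slc30a2 and Slc30a4 and the inflammation-linked importer genes Slc39a8 and Slc39a14 were not called. The members' median log2 change was 0.13, beside 0.05 for all genes tested.

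**Figure D1:**
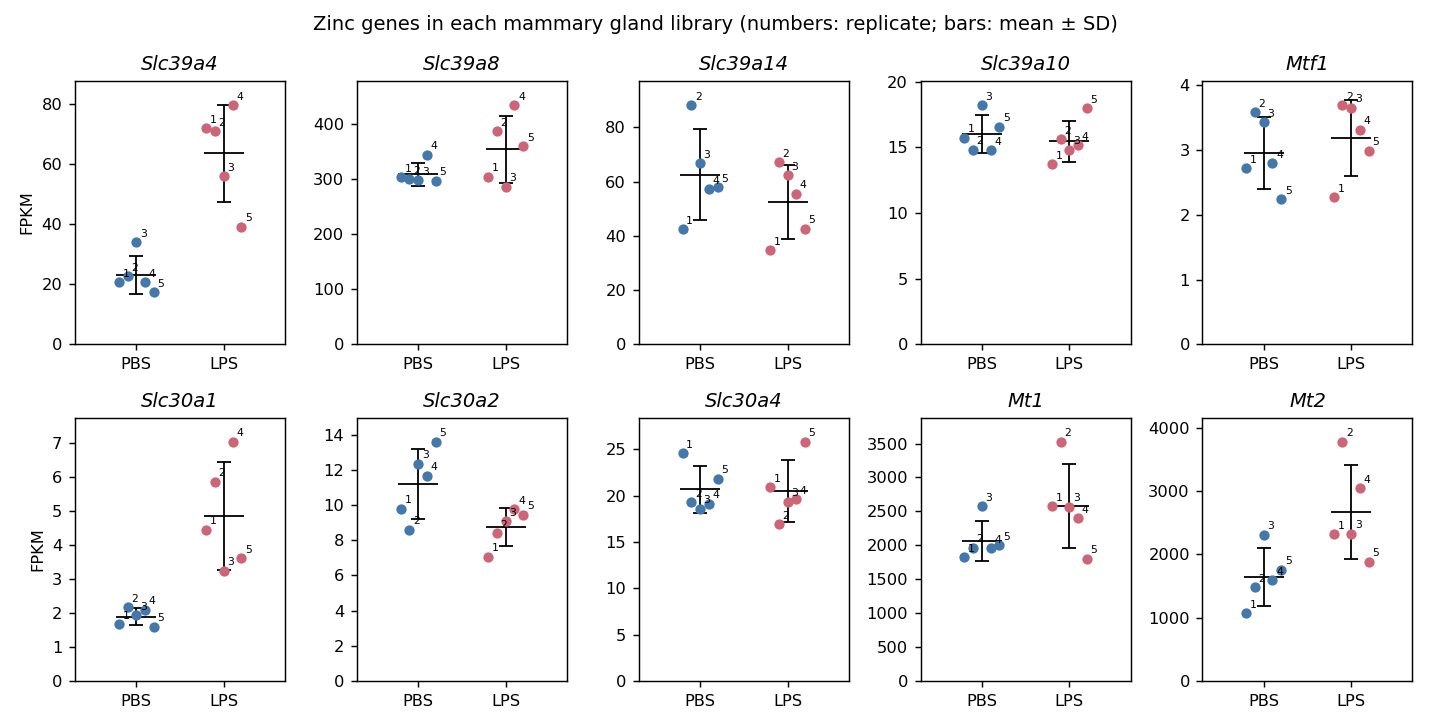
FPKM of the 10 zinc-handling genes in each library (y axis from 0, a separate scale for each gene), with PBS glands in blue, LPS glands in red, replicate numbers beside the points, and bars for mean ± SD (n = 5). The groups of Slc39a4 and of Slc30a1 do not overlap, and those of the other 8 genes do.

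Among the importers, Slc39a4 encodes ZIP4, the zinc importer of intestinal epithelium whose loss causes the zinc deficiency disease acrodermatitis enteropathica. Its transcript is known to become more stable when zinc is short. In PBS replicates 1 to 5 Slc39a4 was at 20.7, 22.8, 34.0, 20.7 and 17.3 FPKM, and in LPS replicates 1 to 5 at 72.1, 71.0, 56.1, 79.8 and 39.2 FPKM. Every LPS gland was above every PBS gland, although the lowest LPS gland, replicate 5, lay close to the highest PBS gland, replicate 3. The means were 23.1 ± 6.40 FPKM in PBS and 63.7 ± 16.1 FPKM in LPS glands (SD, n = 5 each). The log2 change was 1.42 ± 0.20 (SE), with a limma adjusted p of 0.0043. Groups that did not overlap, with LPS higher, were found for 2 of the 10 members and 3.53% of all genes tested, and with LPS lower for 0 members and 1.22% of all genes. The authors' deposited table places this protein-coding gene (ENSMUSG00000063354) at chr15:76612385-76616852 of build mm10, minus strand, and it was covered by 616 to 3027 reads per library. The call of Slc39a4 was kept when any single library was left out (adjusted p 0.00155 to 0.0166), but not without the 3 libraries richest in B and T cell markers, where the log2 change was also 1.42 (adjusted p = 0.0631).

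Slc39a8 (chr3:135825279-135888572, plus strand, in GENCODE M21, an annotation of build mm10) encodes ZIP8, an importer of zinc and manganese known as a target of NF-kB. It was the most abundant transporter of the list and made up 52.2 to 64.5% of the summed FPKM of the ZIP genes in the 10 libraries. In PBS replicates 1 to 5 Slc39a8 was at 303, 299, 297, 344 and 296 FPKM. In LPS replicates 1 to 5 it was at 303, 386, 286, 434 and 359 FPKM. Replicates 2, 4 and 5 of the LPS group were above all PBS glands, and replicate 3 was below all of them. The log2 change of 0.18 had a 95% interval from -0.07 to 0.44 (limma adjusted p = 0.486), which leaves out a rise of the size seen for Slc39a4.

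Slc39a14 (chr14:70303469-70351425, minus strand) encodes ZIP14, through which the liver takes up zinc during the acute phase response. The PBS glands held 42.5, 88.3, 66.8, 57.2 and 57.9 FPKM of Slc39a14 in replicates 1 to 5, and the LPS glands 34.8, 67.2, 62.4, 55.5 and 42.6 FPKM. The groups overlapped over most of their ranges. The log2 change of -0.25 had a 95% interval from -0.69 to 0.19 (limma adjusted p = 0.616). Slc39a10 (chr1:46807544-46892852, minus strand) encodes ZIP10, an importer studied in B cells and in tumour cells of the breast. Slc39a10 ranged from 14.8 to 18.2 FPKM in PBS and from 13.7 to 18.0 FPKM in LPS glands, and it had the narrowest spread of the 4 importers relative to its level in LPS glands. Its log2 change was -0.05, with a 95% interval from -0.25 to 0.15 (limma adjusted p = 0.860).

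Among the ZnT genes, Slc30a1 encodes ZnT1, which exports zinc across the plasma membrane and is switched on by MTF-1 when zinc is plentiful. In PBS replicates 1 to 5 Slc30a1 was at 1.67, 2.17, 1.93, 2.10 and 1.60 FPKM, and in LPS replicates 1 to 5 at 4.46, 5.87, 3.25, 7.05 and 3.61 FPKM. The groups did not overlap, and the spread was wider in LPS glands, with means of 1.89 ± 0.254 and 4.85 ± 1.59 FPKM (SD, n = 5 each). The log2 change was 0.98 ± 0.17 (SE), with a limma adjusted p of 0.00927. This protein-coding gene (ENSMUSG00000037434) is at chr1:191906767-191913247, plus strand, in the authors' deposited table, and 134 to 590 reads per library covered it. Because its level was low, the size of its change depended on the pseudocount, with a log2 change of 0.50 at a pseudocount of 5 and 1.26 at 0.1. The call held under both pseudocounts (limma adjusted p 0.0177 and 0.00769) and without any single library (adjusted p 0.00989 to 0.0322). An antisense gene, 1700034H15Rik, shares 468 exon bases with Slc30a1 and was at 0.015 to 0.23 FPKM.

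Slc30a2 (chr4:134343181-134354484, plus strand) encodes ZnT2, which loads zinc into secretory vesicles of the milk-producing cell. In PBS replicates 1 to 5 Slc30a2 was at 9.80, 8.61, 12.4, 11.7 and 13.6 FPKM, and in LPS replicates 1 to 5 at 7.06, 8.41, 9.07, 9.78 and 9.47 FPKM. Only LPS replicates 1 and 2 were below all PBS glands. The log2 change of -0.32 had a 95% interval from -0.59 to -0.04 and a limma adjusted p of 0.224 (unadjusted p = 0.0270). Slc30a4 (chr2:122681233-122702663, minus strand) encodes ZnT4, another vesicle transporter of the lactating gland. Slc30a4 ranged from 18.6 to 24.6 FPKM in PBS and from 16.9 to 25.8 FPKM in LPS glands, and the LPS range held the PBS range whole. The log2 change of -0.02 had a 95% interval from -0.27 to 0.23 (limma adjusted p = 0.969). Slc30a4 made up 23.4 to 33.4% of the summed FPKM of the ZnT genes per library.

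**Figure D2:**
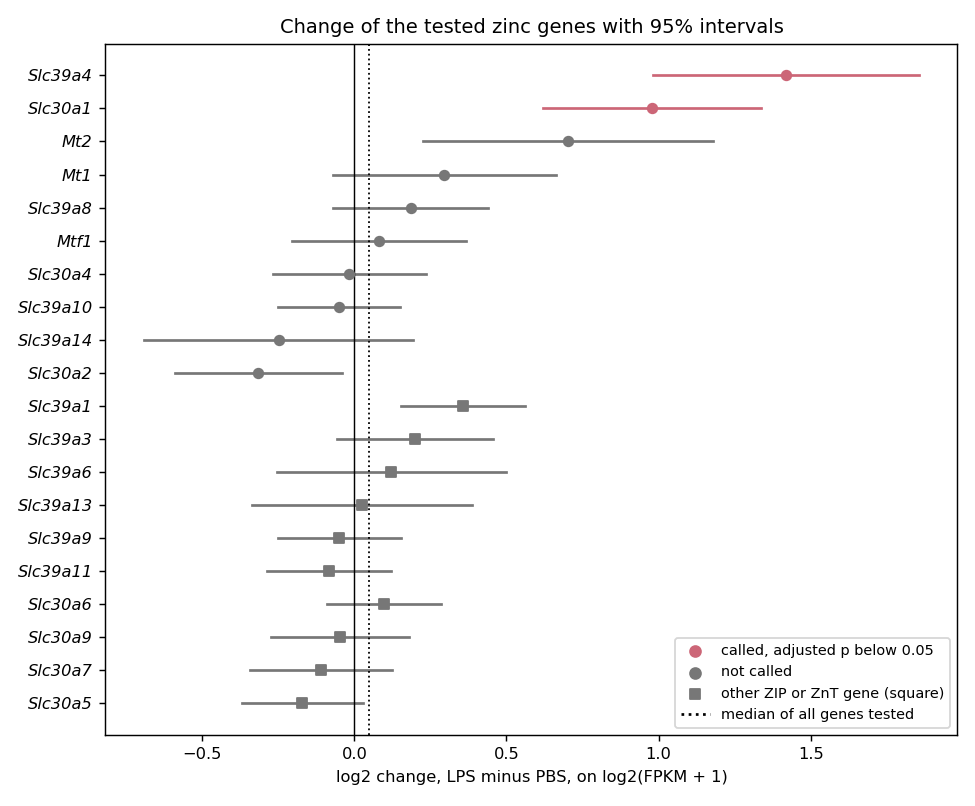
Log2 change (x axis, LPS minus PBS on log2(FPKM + 1)) with its 95% interval for the 10 members (circles) and the 10 other tested ZIP and ZnT genes (squares), called genes in red. Slc39a4 at 1.42 and Slc30a1 at 0.98 are the called genes, and the dotted line marks the median of all genes tested, 0.05.

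Mtf1, whose product acts on the metallothionein genes and Slc30a1, was itself low, and lies at chr4:124802104-124849800 on the plus strand. Mtf1 ranged from 2.24 to 3.59 FPKM in PBS and from 2.27 to 3.70 FPKM in LPS glands, with overlapping groups. The log2 change was 0.08, with a 95% interval from -0.21 to 0.37 (limma adjusted p = 0.839). Transcript level says nothing of how active the protein was. Mtf1 shares 721 exon bases with the antisense gene 1110065P20Rik, at 3.63 to 7.15 FPKM.

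The DNA before the start sites of Mt1, Mt2 and Slc30a1 is shown because these are textbook MTF-1 targets. Each run holds the 250 bases before the RefSeq start site (GRCm38.p6, 5′ to 3′ on the plus strand, which is the strand of all 3 genes), and capitals mark matches to the letters of the metal response element core, TGCACNC or TGCGCNC, on either strand. The window of Mt1 is chr8:94178839-94179088, that of Mt2 chr8:94172368-94172617 and that of Slc30a1 chr1:191906531-191906780.
Mt1: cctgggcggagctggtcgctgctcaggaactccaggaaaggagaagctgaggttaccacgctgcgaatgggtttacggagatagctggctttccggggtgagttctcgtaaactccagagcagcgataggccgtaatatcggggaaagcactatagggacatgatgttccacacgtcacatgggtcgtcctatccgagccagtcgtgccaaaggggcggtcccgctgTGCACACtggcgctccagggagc
Mt2: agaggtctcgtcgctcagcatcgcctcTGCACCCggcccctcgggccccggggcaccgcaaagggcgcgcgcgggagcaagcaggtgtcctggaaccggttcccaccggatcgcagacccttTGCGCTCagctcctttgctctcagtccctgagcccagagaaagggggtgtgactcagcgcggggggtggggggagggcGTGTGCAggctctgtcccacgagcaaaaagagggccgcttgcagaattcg
Slc30a1: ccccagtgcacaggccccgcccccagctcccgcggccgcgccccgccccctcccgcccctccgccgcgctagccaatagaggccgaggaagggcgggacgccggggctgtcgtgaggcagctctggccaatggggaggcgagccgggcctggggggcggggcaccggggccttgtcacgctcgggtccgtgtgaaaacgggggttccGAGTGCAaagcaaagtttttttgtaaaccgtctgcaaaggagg
Mt2 had 3 matches and Mt1 and Slc30a1 had 1 each. Of all 32851 start sites in the RefSeq table, 21.4% had at least 1 match in the same window and 1.26% at least 3. The bases G and C made up 58.8% of the Mt1 window, 67.6% of the Mt2 window and 71.2% of the Slc30a1 window. The mean over all start sites was 53.2%, and the shares given here are not matched for G and C. The counts depend on the window: with the 50 bases after the start site included, 300 bases in all, Mt2 had 4 matches, Mt1 had 3 and Slc30a1 had 2. As many or more were found in 0.517%, 1.97% and 7.11% of all start sites over the same 300 bases. In the printed Mt1 window the match begins 23 bases before the start site, and in the Slc30a1 window 43 bases before it. GENCODE M21 also lists transcripts of Mt1 that start 122 and 152 bases after the RefSeq site and transcripts of Mt2 that start 46 and 242 bases after it. For Slc30a1 it lists a transcript that starts 475 bases after the RefSeq site. The windows therefore need not hold the sequence that drives those forms. RefSeq entries were found for 8 of the 10 members. Of the other 5, Slc30a2 and Slc30a4 had 2 matches each, Slc39a8 had 1 before 1 of its start sites, and Slc39a10 and Mtf1 had 0. At least 2 matches were found in 5.17% of all start sites. The windows of Slc30a2 and Slc30a4 were 64.0% and 82.8% G and C. Of the 3 genes printed, Slc30a1 was called and Mt1 and Mt2 were not, and a match describes letters and not binding.

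The metallothionein genes were the most abundant of the list. Mt1 and Mt2 together made up 0.425 to 0.756% of all FPKM in PBS and 0.560 to 1.13% in LPS glands, and by mean PBS level they ranked 23 and 26 among the 11414 genes tested. In PBS replicates 1 to 5 Mt1 was at 1824, 1966, 2574, 1957 and 2001 FPKM, and in LPS replicates 1 to 5 at 2573, 3528, 2570, 2396 and 1802 FPKM. LPS replicate 2 was above all PBS glands and LPS replicate 5 was below all of them. The log2 change of Mt1 was 0.30 with a 95% interval from -0.07 to 0.66 (limma adjusted p = 0.425), and quantile normalization turned its sign (-0.19, adjusted p = 0.518).

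Mt2 was at 1070, 1477, 2311, 1594 and 1755 FPKM in PBS replicates 1 to 5 and at 2316, 3778, 2326, 3039 and 1882 FPKM in LPS replicates 1 to 5. All LPS glands except replicate 5 were above every PBS gland, by a small margin over PBS replicate 3 for LPS replicates 1 and 3. The log2 change was 0.70 ± 0.22 (SE), with a 95% interval from 0.22 to 1.18. For Mt2 the tests differed: the limma adjusted p was 0.112 and that of edgeR on recovered reads 0.113, but DESeq2 on the same reads called it (adjusted p = 0.0251). DESeq2 called 7.4% of all genes and edgeR 3.83%, in either direction, where limma called 3.23%. The authors' deposited table lists 3 of the 10 genes, Mt2 (log2 fold change 0.54, adjusted p = 0.0277), Slc30a1 (1.11, 2.49e-08) and Slc39a4 (1.21, 2.82e-10). Its log2 scale differs from the one used here.

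The ratio of Mt2 to Mt1 within a library was 0.785 ± 0.125 in PBS and 1.04 ± 0.151 in LPS glands (SD, n = 5 each), a measure chosen after the values were seen and not tested. It was 0.586 to 0.898 in PBS and 0.900 to 1.27 in LPS glands, so that the ranges met almost end to end. Mt1 was above Mt2 in all 5 PBS libraries, and Mt2 above Mt1 in 3 of 5 LPS libraries. Of the other metallothionein genes, Mt3, a form of the brain, was at 0 to 0.788 FPKM, and Mt4, a form of stratified epithelium, had 1 read in LPS replicate 3 and none elsewhere. The 4 genes lie in a row on the plus strand of mouse chromosome 8, from Mt4 (start 94137197) over Mt3 (94152607) and Mt2 (94172664) to Mt1 (94179082 to 94180327) in GENCODE M21. GENCODE also lists an antisense gene, Gm45774, over 73.5% of the exon bases of Mt2. The labels do not say whether counting kept the strand, so reads of Mt2 and of this antisense gene cannot be told apart.

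**Figure D3:**
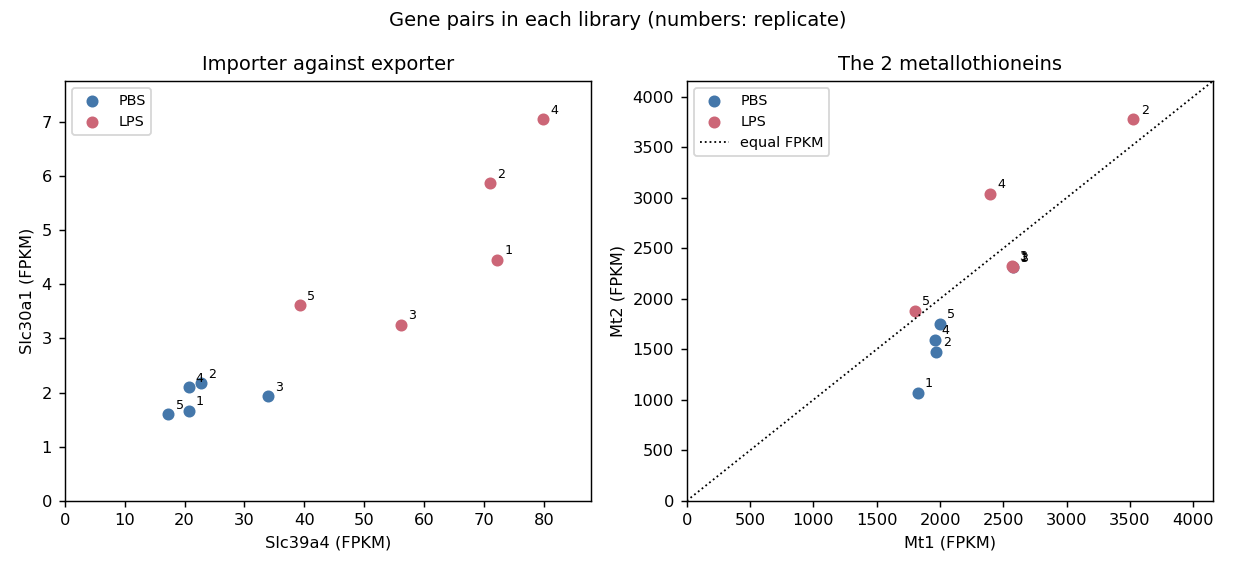
Slc30a1 against Slc39a4 (left) and Mt2 against Mt1 (right) in each library, in FPKM on linear axes from 0, with replicate numbers and, on the right, a dotted line of equal FPKM. LPS and PBS glands form separate groups on the left, and on the right LPS replicates 1 and 3 lie on PBS replicate 3.

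By level, the order in PBS glands ran from Mt1, Mt2, Slc39a8, Slc39a14, Slc39a4, Slc30a4, Slc39a10 and Slc30a2 down to Mtf1 and Slc30a1. The ranges of neighbours overlapped for Mt1 and Mt2 and for Slc39a4 and Slc30a4. In LPS glands Slc39a4 stood above Slc39a14 by mean and Slc30a1 above Mtf1, although each of these pairs overlapped in range. By mean FPKM among all genes tested, Slc39a4 ranked 1932 in PBS and 651 in LPS glands, and Slc30a1 ranked 10003 and 7293.

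Slc39a4 and Slc30a1, an importer and an exporter, are known to respond to zinc in opposite directions, and here both were higher. Their ratio in FPKM was 12.2 ± 3.15 in PBS and 13.5 ± 2.95 in LPS glands (SD, n = 5 each), and the ranges overlapped (9.87 to 17.6 and 10.9 to 17.2). After each group's mean was subtracted, their log2(FPKM + 1) values had a Pearson r of 0.63 and a Spearman rho of 0.73 over the 10 libraries. Within the groups, the highest r among the members was that of Mt1 with Mt2 (r = 0.83, rho = 0.60) and the lowest that of Mt1 with Slc30a4 (r = -0.85, rho = -0.70). Slc39a14 and Mtf1 had an r of 0.83 and a rho of 0.92. These are descriptions over 10 libraries, which share depth and cell makeup across genes.

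Among 10558 other tested genes (predicted genes, pseudogenes and immunoglobulin segments left out), those most like Slc39a14 within the groups were Calm3, Shisa5 and Lrp1 (r = 0.98 for each). Those most like Slc30a2 were Nbas, Lman1 and Ssr1 (r = 0.95, 0.93 and 0.93), and those most like Mt1 were Plscr3, Lrwd1 and Orc5 (r = 0.94, 0.94 and 0.93). With any 1 library left out, the lowest r of these 9 pairs was 0.869. They are the best of a large search over 10 libraries.

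The rest of the zinc pathway held 19 genes, of which 10 were tested and 0 were called in either direction by limma, beside 3.23% of all genes tested. Of the other ZIP genes 6 of 10 were tested, with a median log2 change of 0.07. Slc39a1, which encodes the plasma membrane importer ZIP1, was at 52.0 to 67.8 FPKM in PBS and 67.6 to 84.2 FPKM in LPS glands, so that only LPS replicate 1 was not above every PBS gland. Its log2 change was 0.36, with a 95% interval from 0.15 to 0.56 and an unadjusted p of 0.00238, and the limma adjusted p of 0.0622 missed the threshold. Without LPS replicate 1 Slc39a1 was called (limma adjusted p = 0.0363), as it was without PBS replicate 3 (0.0456). Slc39a9, which encodes a Golgi-associated transporter, was at 15.5 ± 1.65 FPKM in PBS and 14.9 ± 1.31 FPKM in LPS glands (SD, n = 5 each). Slc39a7, the importer of the endoplasmic reticulum, was at 0.380 to 1.39 FPKM and was not tested. In GENCODE M21 the readthrough gene Gm20427 covers 80.7% of its exon bases, so the counted level of Slc39a7 is uncertain.

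Of the other ZnT genes 4 of 7 were tested, with a median log2 change of -0.08. Slc30a5, which encodes a transporter of the early secretory pathway, was at 17.1 ± 2.01 FPKM in PBS and 15.0 ± 0.746 FPKM in LPS glands (log2 change -0.17, limma adjusted p = 0.388). Slc30a7, of the same pathway, was at 11.2 ± 1.61 and 10.3 ± 1.12 FPKM (log2 change -0.11, limma adjusted p = 0.695). Slc39a12, Slc30a8 and Slc30a10 were listed at 0 in all 10 libraries.

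S100a8 and S100a9 encode calprotectin, the zinc-binding protein of neutrophils and of inflamed epithelium. They were at 4829 to 9570 and 2522 to 4682 FPKM in LPS glands and at 603 to 1450 and 72.7 to 412 FPKM in PBS glands, and both rose (log2 change 3.11 and 4.63, limma adjusted p = 9.35e-05 for each). Some neutrophil markers were also higher in LPS glands. Of 14 tested markers 5 rose and 0 fell, namely S100a8 and S100a9 themselves and Csf3r, Cxcr2 and Retnlg. Of all genes tested, 2.63% rose and 0.605% fell. All 14 tested neutrophil markers had a log2 change above 0, with a median of 0.69, beside 0.05 for all genes tested. The 18 markers summed to 11894 to 17315 FPKM in LPS and 3002 to 4596 FPKM in PBS glands. Without S100a8, S100a9 and Ltf, which epithelium also makes, the other 15 summed to 34.4 to 105 FPKM in LPS and 23.9 to 55.5 FPKM in PBS glands, and these ranges overlapped. In each library 13 to 15 of these 15 markers were above 0. Csf3r, the neutrophil growth factor receptor gene, was highest in LPS replicates 2 and 5 (15.6 and 15.3 FPKM, against 3.93 to 8.47 FPKM in the other LPS glands). Csf3r is 1 of the 18 markers, and how Slc39a4 or Slc30a1 varied with it or with the other markers between glands was not tested. A few epithelial markers also differed, named after their values were seen. Of 12 secretory luminal markers the keratin gene Krt8 rose (limma adjusted p = 0.0445) and Btn1a1, the gene of a milk fat globule protein, fell (0.00864). The other 10 were not called. Of the 12 secretory markers 3 had a log2 change above 0, and their median was -0.31, beside 0.05 for all genes tested. Of 7 tested myoepithelial markers the keratin gene Krt5 rose (limma adjusted p = 0.0163) and 6 were not called. All 7 had a log2 change above 0, as did 7003 of the 11414 genes tested. The part of neutrophils and of epithelial cell makeup in the changes of Slc39a4 and Slc30a1 was not tested.

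**Figure D4:**
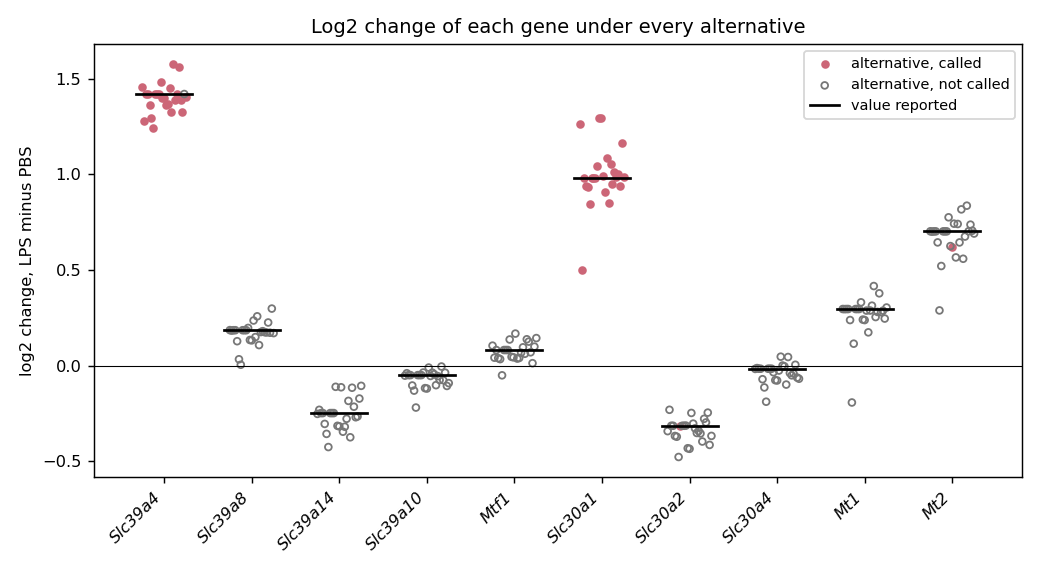
Log2 change (y axis) of each member in the reported test (black line) and under each alternative of scaling, filter, pseudocount, model, tool or left-out library (points, red where called). Slc39a4 stayed between 1.24 and 1.58 and Slc30a1 between 0.50 and 1.29, while Mt1 reached -0.19 under quantile normalization.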

How the data were processed

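The submitters' processing notes name mm10 and the tools STAR (2.5), HTSeq (0.6.1) and DESeq2 (2), with no settings or annotation release. The authors deposited FPKM for all genes and, for 908 genes, raw read counts, normalized values (signal, each count divided by a size factor of its library), log2 fold changes and adjusted p-values, per the file headers. The FPKM equalled counts divided by gene length and by 1 number of reads per library, which served as depth. Whole reads were recovered for 23055 of 23059 genes above 0 (99.98%), within 0.002 reads. Without molecular identifiers, reads include PCR copies.

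The test was limma 3.58.1 (R 4.3.3, intensity trend, two-sided) on log2(FPKM + 1) of genes that reached an FPKM of 1 in 5 or more of 10 libraries, with Benjamini-Hochberg adjustment over 11414 genes. Alternatives were DESeq2 1.42.0 and the quasi-likelihood test of edgeR 4.0.16, both on recovered reads, other pseudocounts, filters, scalings, models and left-out libraries, 25 in all, of which both that concern B and T cells were chosen after seeing the data. The limma, edgeR and DESeq2 fits were each run on simulated data. The named genes were all members, the called and the 2 most abundant genes of each other zinc family, up to 3 called genes each of the copper, glucocorticoid and STAT3 lists, S100a8 and S100a9, and the 3 genes most like Mt1, Slc39a14 and Slc30a2. The markers were lists for neutrophils, B and T cells, epithelium and other cells. Members and lists were chosen with earlier results of these data known. Symbols came from an Ensembl name table for 34490 of 35275 genes.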

Additional observations from a re-analysis of the deposited data

Results flagged for a closer look

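In 42 groups of 5 libraries, 1 sample lay far from the other 4 in 3 groups, measured as its gap to the nearest of the others divided by the whole range; chance flags about 1 in 20 groups. PBS replicate 4 had 343.9 FPKM of Slc39a8, where the other PBS glands had 296.2 to 303.0 FPKM. PBS replicate 3 had 2574 FPKM of Mt1, where the other PBS glands had 1824 to 2001 FPKM, and it was also the highest PBS gland in Mt2 and in Slc39a4. LPS replicate 3 had 0.148 FPKM of Mt4, which was 1 read, where the other LPS glands had none.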

How the results depend on the processing

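Slc39a4 was called in 24 of 25 alternatives and Slc30a1 in 24 of 24, since Slc30a1 did not reach the filter on a mean FPKM of 5; that filter left 1 called member, as did leaving out the 3 libraries richest in B and T cell markers (Slc39a4 1.42, adjusted p = 0.0631). Leaving out single libraries changed no member's call (2 higher and 0 lower each time). Over all genes the 300 rises became 101 without a filter, 132 with scaling to the sum outside milk proteins, 534 with library weights, 546 with DESeq2, 633 with the B and T cell covariate and 26 without the 3 libraries, and ranged from 117 to 422 without 1 library (117, 157, 131, 125 and 178 without LPS replicates 2 or 3 or PBS replicates 1, 4 or 5). The 69 falls became 25, 239, 122, 299, 111 and 6 in the same order, 145 with quantile normalization and 132 with edgeR, and ranged from 27 to 89 without 1 library. Rises were 81.3% of calls in the reported test, 61.6% with quantile normalization and 35.6% with the milk protein scaling, which moved the median log2 change of all genes from 0.05 to -0.10.

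Of the other zinc genes 1 rose (Slc39a1) with library weights, and 0 to 1 without 1 library. Uncalled genes changed sign in places: Mt1 to -0.19 with quantile normalization, Mtf1 to -0.051 with the milk protein scaling, Slc30a4 (-0.10 to 0.046) and Slc39a9 (-0.094 to 0.0038) without 1 library. The cause was not tested in any of these cases, other than the smaller number of glands where libraries were left out. The LPS and PBS libraries of a number are not stated to come from 1 mouse, and the number was not used for pairing. Their deviations from the group means correlated by 0.0993 (number 3) to 0.494 (number 5), above 0 for every number. In 3 of 5 LPS libraries the best correlation was with their own number. These values do not show that the libraries are unpaired, and the reported test would ignore any pairing. With the replicate number as a block 962 genes rose and 267 fell, with 2 members higher, 1 lower (Slc30a2, -0.32, adjusted p = 0.0454) and 1 other zinc gene higher (Slc39a1, adjusted p = 0.0114). At 134 to 590 reads per library, counting error weighs most on Slc30a1 among the called members.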

Other observations

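Copper shares metallothioneins with zinc. Of 12 copper-handling genes 8 were tested and 0 were called by limma in either direction, where 3.23% of all genes tested were called. All 8 had a log2 change above 0 (median 0.20, beside 0.05 for all genes tested, of which 7003 of 11414 were above 0). Glucocorticoids and STAT3 signals are known inducers of metallothionein genes. Of 10 glucocorticoid response genes 0 were called (median log2 change -0.01), beside the same 3.23% of all genes tested. Of 10 STAT3 response genes 2 rose and 1 fell by limma, where 2.63% of all genes tested rose and 0.605% fell. Osmr, the oncostatin M receptor gene, went from 10.5 ± 1.51 to 17.1 ± 3.21 FPKM (limma adjusted p = 0.0245). Socs3, a feedback inhibitor of STAT3, went from 15.9 ± 2.44 to 24.7 ± 4.73 FPKM (limma adjusted p = 0.0307), and Il6ra, an interleukin-6 receptor subunit gene, from 13.6 ± 1.99 to 9.82 ± 0.379 FPKM (limma adjusted p = 0.0438). Each value is a mean ± SD over 5 glands, PBS before LPS. Osmr kept its call in 16 of 25 alternatives, Socs3 in 16 and Il6ra in 13, with adjusted p-values up to 0.16, 0.0861 and 0.133.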
